A study of Danio rerio with 18 samples.

Results

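A set of 10 classical genes of germ cells, of the piRNA pathway and of meiosis were followed through every library of a zebrafish study of *kif7* and scoliosis: *piwil1*, *piwil2*, *tdrd1*, *ddx4*, *dazl*, *dnd1*, *nanos3*, *sycp1*, *sycp3* and *dmc1*. They were taken from the table of read counts by gene symbol, and all 10 were found, each under 1 identifier, among its 31901 genes. RNA was sequenced from whole fish of 4 groups at 6 weeks post fertilisation (wpf), 3 fish a group and 1 fish a library, and from 3 groups of larvae at 4 days post fertilisation (dpf), 2 pools of 20 embryos a group. The 6 wpf groups were scoliotic *kif7co63/co63* fish, non-scoliotic *kif7co63/co63* fish, *kif7co63/+* fish and fish of the wild-type strain AB. The 4 dpf groups were *kif7co63/co63*, *kif7co63/+* and AB larvae. The co63 allele is a CRISPR-Cas9 insertion and deletion in exon 3 of *kif7*, and the line had been crossed to AB at intervals. An effect of *kif7* and a difference at other loci between the line and AB cannot be told apart in comparisons with AB. Nor can they be told apart between *kif7co63/co63* and *kif7co63/+* groups, which may differ in their share of AB background. The labels give neither the sex of a fish nor the clutch it came from, and the p-values below therefore measure the spread between these libraries alone.

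In animals, the piRNA pathway guards the germ line: Piwi proteins carry small RNAs that direct the silencing of transposons, and Tudor domain proteins hold them in granules beside the nucleus of the germ cell. Vasa (Ddx4), Dazl, Dnd1 and Nanos3 bind germ cell RNAs and are needed to form or to keep germ cells, and Sycp1, Sycp3 and Dmc1 pair and recombine the chromosomes in meiosis. In zebrafish, germ cells are few in the larva and multiply as the gonad grows, the juvenile gonad passes through a stage with early oocytes whether the fish will become female or male, and fish that lose their germ cells develop as males.

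Libraries held 44503110 to 69698533 counted reads, and levels are given as CPM, the reads of a gene relative to the size of its library after TMM scaling of all libraries together. *kif7* itself averaged 27.0 ± 1.56 CPM in scoliotic fish, 27.4 ± 2.18 CPM in non-scoliotic fish and 26.8 ± 4.82 CPM in *kif7co63/+* fish, against 44.1 ± 3.19 CPM in AB fish (SD, n = 3 each), and was lower than AB in all 3 groups. At 4 dpf it was 10.8 and 21.5 CPM in *kif7co63/co63* pools, 14.8 and 15.6 CPM in *kif7co63/+* pools and 12.9 and 15.3 CPM in AB pools, and did not pass the test. Adult globins summed to 1927 to 5688 CPM at 6 wpf and to at most 0.509 CPM at 4 dpf, so the ages matched their labels. The *kif7co63/co63* pools at 4 dpf differed from each other far more than any other pair of replicates, with a chi-square of 479 per gene against 27.4 to 152 in the other pairs. All libraries are whole bodies, in which fewer germ cells and less RNA per germ cell cannot be told apart.

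At 6 wpf the summed level of the germ cell genes was low in *kif7co63/co63* fish, intermediate in *kif7co63/+* fish and high in AB fish, and the *kif7co63/co63* fish differed widely among themselves. Summed over the 10 genes, the level was 88.0, 6.45 and 15.4 CPM in scoliotic fish 1 to 3, 187, 6.22 and 50.4 CPM in non-scoliotic fish 1 to 3, 383, 265 and 496 CPM in *kif7co63/+* fish 1 to 3, and 599, 624 and 627 CPM in AB fish 1 to 3. The larval pools held 4.42 to 8.36 CPM. The sums of *kif7co63/co63*, *kif7co63/+* and AB fish did not overlap, whereas those of scoliotic and non-scoliotic fish did. The group means ran in this order for *piwil1*, *piwil2*, *ddx4*, *dazl*, *dnd1*, *nanos3* and *sycp1*, while those of *sycp3* were 0.817 CPM in *kif7co63/+* and 0.843 CPM in AB fish and *tdrd1* ran in another order. Scoliotic fish 2 and non-scoliotic fish 2 were within the larval range, and scoliotic fish 3 was 1.84 times the highest larval pool.

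**Figure D1:**
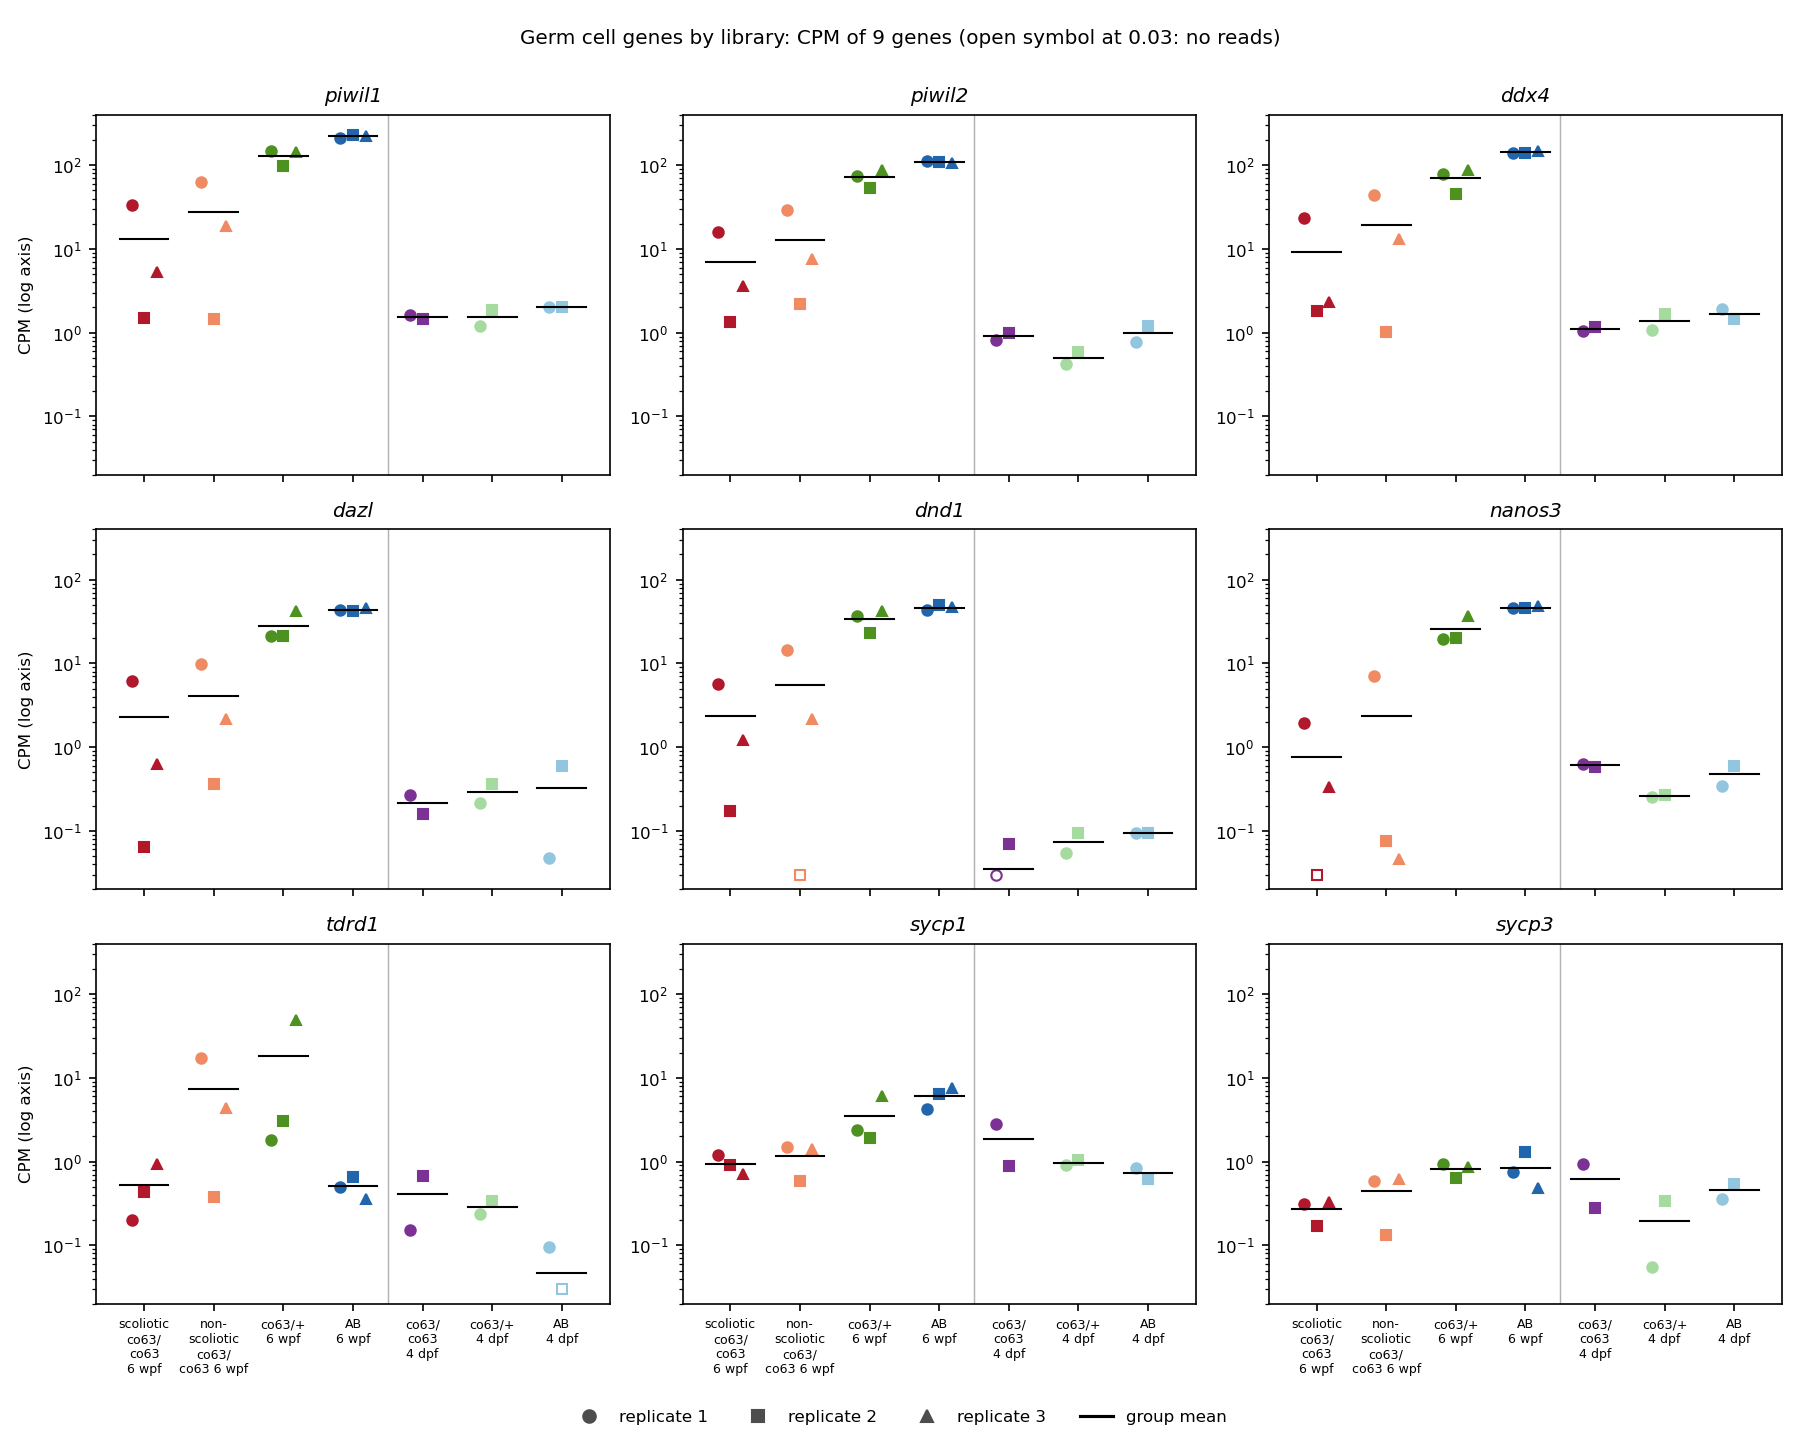
CPM (log axis) of 9 germ cell genes in each of the 18 libraries, by group; symbols mark replicates, lines group means, and open symbols libraries without a read. For *piwil1*, *piwil2*, *ddx4*, *dazl*, *dnd1* and *nanos3* the *kif7co63/co63* fish of 6 wpf lie below both other 6 wpf groups and, except for *piwil2*, reach down into the larval range, while *tdrd1* follows another order, with AB fish between 0.357 and 0.657 CPM. *dmc1* had no read in any library and is not drawn.

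The genes with the highest level per kilobase of transcript in AB fish of 6 wpf were *piwil1* at 52.1 to 56.7 CPM per kb, *ddx4* at 47.9 to 51.1 CPM per kb and *nanos3* at 40.4 to 42.5 CPM per kb, in ranges that did not overlap. *dnd1* at 19.6 to 22.4 CPM per kb, *dazl* at 17.4 to 18.8 CPM per kb and *piwil2* at 14.2 to 14.9 CPM per kb followed, again without overlap. *sycp1* at 1.23 to 2.17 CPM per kb, *sycp3* at 0.379 to 1.01 CPM per kb and *tdrd1* at 0.0578 to 0.106 CPM per kb were far below them. The order put the RNA-binding and Piwi genes above the genes of the synaptonemal complex, the protein axis between paired chromosomes.

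The Piwi proteins bind piRNAs directly. Both of their genes overlap another gene on the same strand, *piwil1* with *fzd10* over 2982 bases and *piwil2* with an RNA gene (RF00001) over 117 bases, and how reads in a shared stretch were assigned is not given in the sources used here. *piwil1* (Ziwi; ENSDARG00000041699, GRCz11 chromosome 8, 44224693 to 44299247, minus strand) read 33.1, 1.50 and 5.27 CPM in scoliotic fish, 63.4, 1.45 and 18.8 CPM in non-scoliotic fish, 148, 96.9 and 144 CPM in *kif7co63/+* fish and 211, 229 and 223 CPM in AB fish, against 1.20 to 2.04 CPM in the 6 larval pools. The 3 genotypes did not overlap at 6 wpf, and the highest *kif7co63/co63* fish stood 43.7 times above the lowest. In edgeR's quasi-likelihood test, with p-values adjusted over all genes tested, *piwil1* was lower in scoliotic than in AB fish by a log2 fold change of -4.14 ± 1.06 (SE; adjusted p = 0.0195) and in *kif7co63/+* than in AB fish by -0.77 ± 0.16 (adjusted p = 0.00827). Against AB, the non-scoliotic fish gave -3.04 ± 1.08, which did not pass the test (adjusted p = 0.058).

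*piwil2* (Zili; ENSDARG00000062601, chromosome 5, 16428411 to 16475682, minus strand), whose loss arrests germ cell development in zebrafish, read 16.1, 1.35 and 3.64 CPM in scoliotic fish, 29.0, 2.195 and 7.57 CPM in non-scoliotic fish, 74.0, 52.9 and 87.7 CPM in *kif7co63/+* fish and 112, 110 and 107 CPM in AB fish. Here too the 3 genotypes were separate at 6 wpf, and the larvae held 0.418 to 1.19 CPM. *piwil2* was lower in every 6 wpf comparison with AB or with *kif7co63/+* fish. The log2 fold change was -4.04 ± 0.85 in scoliotic vs. AB fish (adjusted p = 0.00922), -3.13 ± 0.83 in non-scoliotic vs. AB fish (0.021) and -0.61 ± 0.17 in *kif7co63/+* vs. AB fish (0.0247).

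*tdrd1* (ENSDARG00000007465, chromosome 12, 30344076 to 30359540, minus strand) encodes a Tudor domain protein that binds Piwi proteins in the germ granules of zebrafish, and it did not follow the Piwi genes. It read 0.202, 0.430 and 0.945 CPM in scoliotic fish, 17.2, 0.382 and 4.42 CPM in non-scoliotic fish, 1.79, 3.04 and 49.4 CPM in *kif7co63/+* fish and 0.502, 0.657 and 0.357 CPM in AB fish. All 3 *kif7co63/+* fish were above all AB fish, and 1 of them, fish 3, was far above the other carriers. Per 100 reads of *piwil1* there were 0.611 *tdrd1* reads in scoliotic fish 1, 17.9 in scoliotic fish 3, 27.2 and 23.6 in non-scoliotic fish 1 and 3, 1.21, 3.14 and 34.3 in *kif7co63/+* fish 1 to 3 and 0.160 to 0.287 in AB fish. Scoliotic fish 2 and non-scoliotic fish 2 had 70 and 76 *piwil1* reads, and their ratios were 28.6 and 26.3. Among the libraries with the most germ cell RNA, *tdrd1* was therefore lowest relative to *piwil1* in the AB fish.

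*tdrd1* was higher in *kif7co63/+* than in AB fish by a log2 fold change of 5.17 ± 1.27 (adjusted p = 0.015) and in non-scoliotic than in AB fish by 3.81 ± 1.18 (0.0372), although non-scoliotic fish 2 lay within the AB range. It was lower in scoliotic than in *kif7co63/+* fish by -5.11 ± 1.45 (0.0312), and the difference between scoliotic and AB fish was -0.01 ± 0.62 (0.991). DESeq2 gave no adjusted p for *tdrd1* in scoliotic or AB fish set against *kif7co63/+* fish. In *kif7co63/+* vs. AB fish it was 2.25 ± 0.40 without *kif7co63/+* fish 3 (adjusted p = 0.00434), and the call ended without AB fish 1 or 3 (0.0594 and 0.0533). In non-scoliotic vs. AB fish the call held only without non-scoliotic fish 2, and at 2.16 ± 0.91 without non-scoliotic fish 1 it did not pass (0.105). In scoliotic vs. *kif7co63/+* fish it ended without *kif7co63/+* fish 3 or any 1 of the scoliotic fish (0.0594 to 0.0777).

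The locus of *tdrd1* shares 1369 bases with *vwa2* on the same strand, and the genes beside it also differed between AB and most other libraries. *vwa2* read 0.0225 CPM in scoliotic fish 1 and 0.900 to 11.6 CPM in the other *kif7co63/co63* and *kif7co63/+* fish, against at most 0.0143 CPM in AB fish. *afap1l2*, the next gene on that side, read 0.0899 CPM in scoliotic fish 1 and 2.36 to 20.9 CPM in the other *kif7co63/co63* and *kif7co63/+* fish, against 0.0429 to 0.0520 CPM in AB fish. At 4 dpf these genes read 3.31 to 16.8 CPM in *kif7co63/co63* and *kif7co63/+* pools and at most 0.132 CPM in AB pools. On the other side of *tdrd1*, *si:ch211-225b10.3* read 0 CPM in AB fish and scoliotic fish 1 and 0.420 to 1.60 CPM in the other fish. At 4 dpf it read 1.41 to 3.33 CPM in *kif7co63/co63* and *kif7co63/+* pools and at most 0.0157 CPM in AB pools. These genes on both sides, chosen after their values were seen, thus split the libraries into AB with scoliotic fish 1 and all others. *tdrd1* was also lowest in scoliotic fish 1 among the 6 wpf fish. The part of this region in the *tdrd1* result was not tested.

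**Figure D2:**
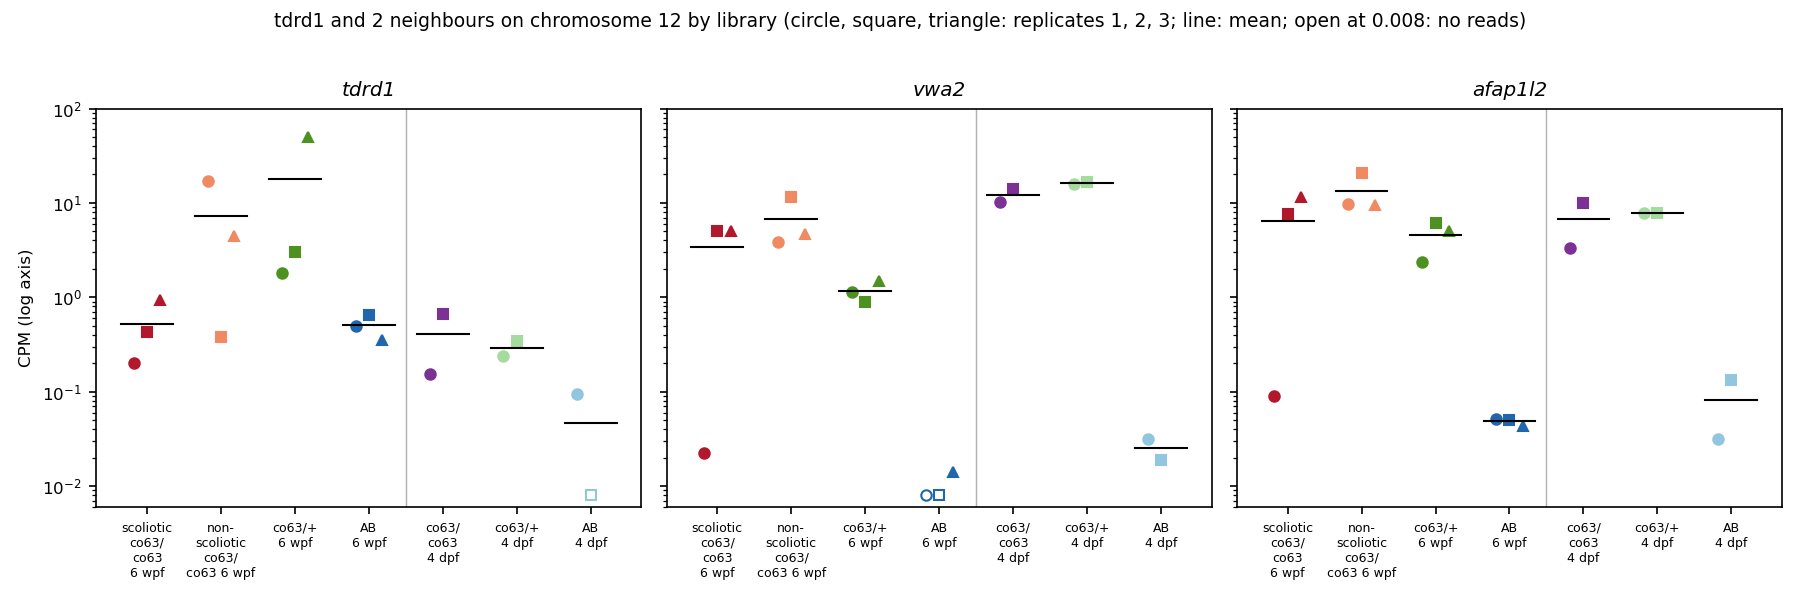
CPM (log axis) of *tdrd1* and of its neighbours *vwa2* and *afap1l2* in each library, by group; symbols mark replicates, lines group means, and open symbols libraries without a read. The neighbours are at or below 0.132 CPM in the 5 AB libraries and in scoliotic fish 1 and above that in every other library.

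*ddx4* (Vasa, a DEAD-box RNA helicase of germ granules; ENSDARG00000014373, chromosome 10, 6884123 to 6905574, plus strand) read 23.3, 1.83 and 2.34 CPM in scoliotic fish, 43.5, 1.03 and 13.2 CPM in non-scoliotic fish, 78.2, 45.0 and 87.1 CPM in *kif7co63/+* fish and 138, 140 and 148 CPM in AB fish. The larvae held 1.06 to 1.93 CPM, a range that included scoliotic fish 2, while non-scoliotic fish 2 was just under it. *ddx4* was lower in scoliotic vs. AB fish by -4.03 ± 1.01 on the log2 scale (adjusted p = 0.0179) and in *kif7co63/+* vs. AB fish by -1.02 ± 0.22 (0.00853). It stood at -2.94 ± 1.05 in non-scoliotic vs. AB fish (0.0597) and at -2.94 ± 0.97 in scoliotic vs. *kif7co63/+* fish (0.0502), neither of which passed the test.

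*dazl* (an RNA-binding activator of translation in germ cells; ENSDARG00000036214, chromosome 19, 20389104 to 20403871, minus strand) read 6.18, 0.0645 and 0.638 CPM in scoliotic fish, 9.84, 0.363 and 2.18 CPM in non-scoliotic fish, 21.2, 21.3 and 42.1 CPM in *kif7co63/+* fish and 43.2, 42.1 and 45.3 CPM in AB fish. Scoliotic fish 2 had 3 reads, and *kif7co63/+* fish 3 reached the lower edge of the AB range. *dazl* was lower than in AB fish by -4.33 ± 1.15 in scoliotic fish (adjusted p = 0.0229) and by -3.44 ± 0.95 in non-scoliotic fish (0.0245) on the log2 scale. In *kif7co63/+* vs. AB fish the difference was -0.62 ± 0.25 (0.0819).

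*dnd1* (Dead end, which in zebrafish protects germ cell messages from microRNAs and keeps migrating germ cells alive; ENSDARG00000022813, chromosome 14, 7397804 to 7409364, minus strand) read 5.64, 0.172 and 1.20 CPM in scoliotic fish, 14.6, 0 and 2.198 CPM in non-scoliotic fish, 37.1, 23.1 and 41.8 CPM in *kif7co63/+* fish and 42.9, 49.2 and 47.4 CPM in AB fish. The absence of reads in non-scoliotic fish 2 allows a level of up to 0.0573 CPM, taken as 3 reads and covering counting error alone. The genotypes did not overlap. *dnd1* was lower by -4.39 ± 0.96 in scoliotic vs. AB fish (adjusted p = 0.0109) and stood at -3.10 ± 1.30 in non-scoliotic (0.0958) and -0.45 ± 0.20 in *kif7co63/+* fish (0.108), both vs. AB and both short of the threshold.

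*nanos3* (a repressor of translation needed to keep germ cells and oocytes in zebrafish; ENSDARG00000068255, chromosome 1, 55247370 to 55248496, minus strand) was the gene with the largest fall in scoliotic vs. AB fish among the 9 genes tested. It read 1.95, 0 and 0.331 CPM in scoliotic fish, 6.98, 0.0764 and 0.0463 CPM in non-scoliotic fish, 19.8, 19.9 and 36.8 CPM in *kif7co63/+* fish and 46.0, 45.5 and 47.8 CPM in AB fish, and the genotypes did not overlap. The log2 fold change was -6.01 ± 1.01 in scoliotic vs. AB fish (adjusted p = 0.00373), -4.31 ± 1.39 in non-scoliotic vs. AB fish (0.0433), -0.86 ± 0.23 in *kif7co63/+* vs. AB fish (0.0199) and -5.07 ± 1.06 in scoliotic vs. *kif7co63/+* fish (0.0104). In non-scoliotic vs. AB fish the call held only without non-scoliotic fish 1, at -9.56, and ended without any 1 of the other 5 fish, at -4.33 to -3.75 (adjusted p 0.0502 to 0.0958). In *kif7co63/+* vs. AB fish it ended without AB fish 1 or 3 or *kif7co63/+* fish 1 or 2 (0.0506 to 0.0721). Relative to *piwil1* it was scarcer in the *kif7co63/co63* fish as well. Per 100 *piwil1* reads there were 5.91 and 6.28 *nanos3* reads in scoliotic fish 1 and 3 and 11.0 and 0.247 in non-scoliotic fish 1 and 3, against 13.4 to 25.6 in *kif7co63/+* fish and 19.8 to 21.8 in AB fish. Non-scoliotic fish 3 stood apart here, with 2 *nanos3* reads beside 18.8 CPM of *piwil1*. The same ratio for *ddx4* was 44.4 to 70.6 reads in these 10 fish, without such a gap between genotypes. Scoliotic fish 2 and non-scoliotic fish 2, left out of these ranges, had 70 and 76 *piwil1* reads. Their ratios were 121 and 71.1 for *ddx4* and 0 and 5.26 for *nanos3*.

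Of the genes of the synaptonemal complex, *sycp1* (its transverse filament; ENSDARG00000003904, chromosome 6, 49052741 to 49061086, plus strand) read 1.21, 0.924 and 0.709 CPM in scoliotic fish, 1.49, 0.592 and 1.43 CPM in non-scoliotic fish, 2.40, 1.90 and 6.13 CPM in *kif7co63/+* fish and 4.28, 6.46 and 7.56 CPM in AB fish. It differed less among the *kif7co63/co63* fish than the other genes lower in scoliotic fish did, with the highest 2.52 times the lowest. All 6 were at or below the highest larval pool (0.623 to 2.85 CPM in larvae), which was *kif7co63/co63* pool 1. The other larval pools read 0.623 to 1.04 CPM, and scoliotic fish 1 and non-scoliotic fish 1 and 3 were above these. *sycp1* was lower by -2.75 ± 0.32 in scoliotic vs. AB fish (adjusted p = 0.000818) and by -2.43 ± 0.40 in non-scoliotic vs. AB fish (0.00335) on the log2 scale, the smallest adjusted p of the 9 genes in either comparison.

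*sycp3* (a component of the chromosome axis; ENSDARG00000013438, chromosome 25, 19578048 to 19585010, minus strand) rested on 7 to 77 reads a library at 6 wpf. It read 0.315, 0.172 and 0.331 CPM in scoliotic fish, 0.594, 0.134 and 0.625 CPM in non-scoliotic fish, 0.948, 0.640 and 0.862 CPM in *kif7co63/+* fish and 0.745, 1.30 and 0.486 CPM in AB fish. Scoliotic fish were below both *kif7co63/+* and AB fish, by -1.58 ± 0.44 (adjusted p = 0.0297) and -1.69 ± 0.53 (0.0407) on the log2 scale. The call against *kif7co63/+* fish ended without any 1 of the 6 fish (adjusted p 0.0567 to 0.108). Non-scoliotic fish overlapped with AB fish.

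*dmc1* (the meiotic recombinase; ENSDARG00000055883, chromosome 12, 19356623 to 19362186, plus strand) had no read in any of the 18 libraries, which allows up to 0.0429 to 0.0709 CPM by library, and could not be tested. It lies in a stretch from 19320657 to 19402950 in which all 9 genes of the table had at most 3 reads in any library. The other 8 include *tomm22*, *gspt1* and *rsl1d1*, which cells in general use, while the flanking genes *csnk1e* and *snx29* reached 1704 and 531 reads. The zeros of *dmc1* are thus shared with its neighbours and are not read as a level of the gene.

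The homozygous fish kept much the same order from gene to gene. Non-scoliotic fish 1 was highest for 8 of the 9 detected genes, the exception being *sycp3*. For *piwil1*, *piwil2*, *ddx4*, *dazl* and *dnd1* the order was non-scoliotic fish 1, scoliotic fish 1, non-scoliotic fish 3, scoliotic fish 3 and then, in either order, scoliotic fish 2 and non-scoliotic fish 2. Of the 9 detected genes, the number at or below the highest larval pool was 3, 7 and 3 in scoliotic fish 1 to 3, 2, 8 and 3 in non-scoliotic fish 1 to 3, and 1 or 2 in each *kif7co63/+* and AB fish. For *sycp1* and *sycp3* that pool was *kif7co63/co63* pool 1, at 2.85 and 0.944 CPM. The order did not follow the curvature label.

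Counted over the list, 8 of the 9 genes tested were lower in scoliotic than in AB fish (adjusted p under 0.05), all except *tdrd1*, where 42.1% of all genes tested passed and 23.0% were lower. The median log2 fold change of the 9 was -4.04, against 0.02 over all genes tested. The same 8 did not overlap between the groups, as did 57.5% of all genes. Without scoliotic fish 3, 5 genes passed. The call of *piwil1* ended without scoliotic fish 3, that of *dazl* without scoliotic fish 3 or any 1 of the AB fish, and that of *sycp3* without any 1 fish other than AB fish 3.

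Between non-scoliotic and AB fish, 5 of 9 passed, with *piwil2*, *dazl*, *nanos3* and *sycp1* lower and *tdrd1* higher, where 43.1% of all genes passed, 21.9% lower and 21.2% higher. The median was -3.04, against 0.04 over all genes, and 7 genes did not overlap (58.3% of all genes). The count fell to 1, *sycp1*, without non-scoliotic fish 3, AB fish 1 or AB fish 2 and to 2 without AB fish 3, and it was 7 when non-scoliotic fish 1 or 2 was left out. The call of *piwil2* ended without non-scoliotic fish 3 or AB fish 1 or 2, and that of *dazl* without non-scoliotic fish 3 or any 1 of the AB fish. DESeq2 called 7.

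In *kif7co63/+* vs. AB fish 5 of 9 passed, *piwil1*, *piwil2*, *ddx4* and *nanos3* lower and *tdrd1* higher, where 36.2% of all genes passed, 17.6% lower and 18.6% higher, and 6 genes did not overlap (52.3% of all genes). The group means of *piwil1*, *piwil2*, *ddx4*, *dazl*, *dnd1* and *nanos3* were 49.3% (*ddx4*) to 73.1% (*dnd1*) of AB, and the median log2 fold change of the 9 was -0.62, against 0.03 over all genes. When all 12 libraries of 6 wpf shared 1 estimate of the spread, *tdrd1* alone passed. Leaving out 1 fish gave 2 genes without AB fish 1 or 3, 3 without *kif7co63/+* fish 1 and 8 without *kif7co63/+* fish 3. The call of *piwil2* ended without *kif7co63/+* fish 1 or any 1 of the AB fish.

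Against *kif7co63/+* fish, the scoliotic fish were lower in 8 of 9 genes, all except *ddx4*, where 36.9% of all genes passed and 18.5% were lower. The median was -3.35, against -0.02 over all genes. All 9 genes were separate between the groups (53.0% of all genes). *nanos3* alone passed without scoliotic fish 3 or without *kif7co63/+* fish 3, 3 genes passed without *kif7co63/+* fish 1, and 5 without scoliotic fish 2 or *kif7co63/+* fish 2.

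The non-scoliotic fish were lower than *kif7co63/+* fish in 1 of 9 genes, *piwil2* (log2 fold change -2.49 ± 0.81, adjusted p = 0.0486), where 36.6% of all genes passed and 17.9% were lower. The median was -2.24, against -0.03, and 8 of 9 genes did not overlap (52.6% of all genes). None passed without non-scoliotic fish 3 or without any 1 of the *kif7co63/+* fish, while 3 passed when non-scoliotic fish 2 was left out and 6 when fish 1 of that group was. DESeq2 called *piwil2*, *dazl* and *sycp1*. All of these comparisons share the AB or the *kif7co63/+* fish and are not independent of one another.

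Scoliotic and non-scoliotic fish share the *kif7* genotype, while their genotypes at other loci are not given. No difference passed in any of the 9 genes by edgeR (adjusted p 0.635 to 0.949) or by DESeq2. By edgeR 0.38% of all genes passed, and 1 gene of the 9, *tdrd1*, had an unadjusted p under 0.05. The median was -1.06, against 0.00 over all genes. The SE of the log2 fold change was 1.11 to 1.98 for the 7 genes other than *sycp1* and *sycp3*, so that differences of several fold lie within these errors. All 9 genes overlapped between the groups, against 12.6% of all genes that did not.

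**Figure D3:**
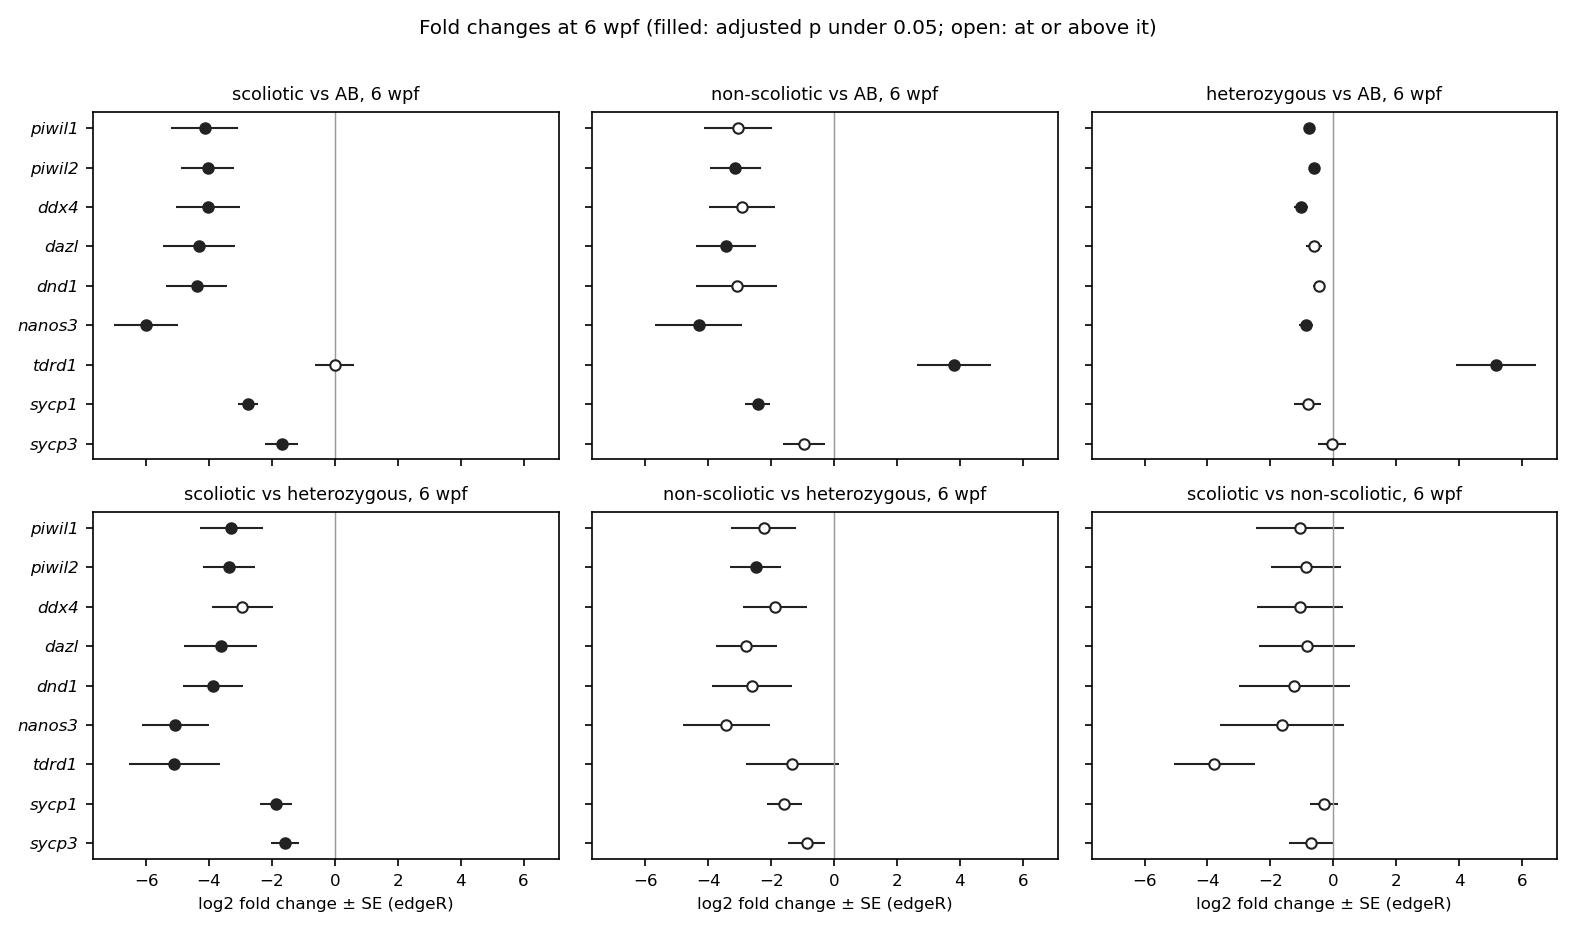
Log2 fold change from edgeR for 9 germ cell genes in the 6 comparisons of 6 wpf fish, the first-named group over the second. Bars are the SE derived from the F statistic, and filled points have an adjusted p under 0.05. Scoliotic vs. AB fish and scoliotic vs. *kif7co63/+* fish have 8 filled points each, all below 0, and scoliotic vs. non-scoliotic fish have none.

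At 4 dpf all groups were low. In the 6 pools, *piwil1* read 1.62 and 1.46 CPM in *kif7co63/co63*, 1.20 and 1.88 CPM in *kif7co63/+* and 2.04 and 2.04 CPM in AB larvae. *nanos3* read 0.636 and 0.580 CPM in *kif7co63/co63*, 0.255 and 0.265 CPM in *kif7co63/+* and 0.346 and 0.604 CPM in AB larvae, and *sycp1* 2.85 and 0.896 CPM, 0.910 and 1.04 CPM, and 0.849 and 0.623 CPM in the same groups. The highest *sycp1* level was in *kif7co63/co63* pool 1. The pools of that group differed widely from each other over all genes, and which of them was unusual was not tested.

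None of the genes passed in larvae. Of the 10 genes, 7 were tested in *kif7co63/co63* vs. AB larvae, 8 in *kif7co63/+* vs. AB larvae and 8 in *kif7co63/co63* vs. *kif7co63/+* larvae, where 0.509%, 6.21% and 0.0358% of all genes passed. The pools did not overlap in 3, 6 and 2 of these genes, as in 32.4%, 55.6% and 33.7% of all genes. No gene had an unadjusted p under 0.05, and DESeq2 called none. In *kif7co63/co63* vs. *kif7co63/+* larvae the log2 fold change of *sycp1* was 0.83 with all pools. Leaving out *kif7co63/co63* pool 2 gave 1.49 and leaving out pool 1 gave -0.18, each with 1 pool left in that group. The size of difference that could have been detected at these levels was not tested.

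Between ages, the genes were far higher at 6 wpf than at 4 dpf in AB and *kif7co63/+* zebrafish. In every comparison between ages, age cannot be told apart from 1 fish against a pool of 20 embryos. In AB, 8 of 9 passed, all higher and all except *sycp3*, where 58.6% of all genes passed and 30.3% were higher, and the same 8 did not overlap (74.4% of all genes). *dnd1* averaged 46.5 CPM in AB fish of 6 wpf and 0.0944 CPM in AB larvae, a log2 fold change of 8.92 ± 0.21 (adjusted p = 1.26e-07), and the median of the 9 was 6.64, against -0.00 over all genes. In *kif7co63/+* zebrafish all 9 passed and were higher, where 53.8% of all genes passed and 28.3% were higher, and did not overlap (71.7% of all genes), with a median of 6.39 against 0.01. The call of *tdrd1* ended in AB zebrafish without larval pool 2 or fish 1 or 2 of 6 wpf, and in *kif7co63/+* zebrafish without either larval pool. In *kif7co63/+* zebrafish that of *sycp1* ended without either larval pool, and that of *sycp3* without larval pool 1 or fish 1 or 3 of 6 wpf.

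In *kif7co63/co63* zebrafish, scoliotic and non-scoliotic fish were fitted as separate groups, and their mean was set against the larval pools. None of the 9 passed in edgeR (adjusted p 0.0694 to 0.675), where 36.0% of all genes passed, and 2 had an unadjusted p under 0.05. The median log2 fold change was 3.38, against -0.06 over all genes. The fish of 6 wpf overlapped with the larvae in 8 of 9 genes, all except *piwil2*, where 45.0% of all genes did not overlap. DESeq2, and edgeR with all 18 libraries in 1 fit, each called 5, *piwil1*, *piwil2*, *ddx4*, *dazl* and *dnd1*, all higher at 6 wpf.

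The difference between ages of the homozygous effect was tested directly, as the effect vs. AB at 6 wpf minus that at 4 dpf. It passed for 1 of 9 genes, *sycp1* at -3.92 ± 0.72 on the log2 scale (adjusted p = 0.00899), where 11.0% of all genes passed and 6.75% were lower, and 3 had an unadjusted p under 0.05. Its effect vs. AB was negative in both homozygous groups at 6 wpf and 1.34 ± 0.73 at 4 dpf. The call ended without AB pool 1 of 4 dpf (adjusted p = 0.0518). The difference was -5.51 ± 2.21 for *nanos3* (0.135) and -3.47 ± 1.40 for *piwil2* (0.138), neither past the threshold. For the heterozygous effect none of 9 passed, where 17.4% of all genes did, DESeq2 called none, and no gene had an unadjusted p under 0.05.

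The summed level of oocyte genes followed that of the germ cell genes. Without *ccnb1*, which dividing cells in general express, 29 oocyte genes summed to 956, 9.69 and 84.8 CPM in scoliotic fish 1 to 3, 2058, 10.1 and 408 CPM in non-scoliotic fish 1 to 3, 6379, 4786 and 8560 CPM in *kif7co63/+* fish and 8876, 9595 and 9748 CPM in AB fish, and to 13.7 to 20.9 CPM in larvae. The 12 fish fell in the order of their germ cell sums except for scoliotic fish 2 and non-scoliotic fish 2, which changed places. In scoliotic fish 2 and non-scoliotic fish 2, 14 and 16 of the 29 genes had no read, against 4 in each AB fish. Per 100 CPM of oocyte genes there were 9.21 and 18.2 CPM of the germ cell genes in scoliotic fish 1 and 3, 9.07 and 12.3 CPM in non-scoliotic fish 1 and 3, 5.53 to 6.01 CPM in *kif7co63/+* fish and 6.43 to 6.75 CPM in AB fish. This ratio was far higher in scoliotic fish 2 and non-scoliotic fish 2, at 66.5 and 61.9 CPM, and in larvae, at 29.6 to 45.6 CPM. The highest oocyte genes in both fish were *lhx8a*, *gdf3* and *cpeb1b*, named after their values were seen. They read 2.79, 1.91 and 2.11 CPM in scoliotic fish 2 and 2.83, 3.72 and 1.39 CPM in non-scoliotic fish 2. Larvae read 4.20 to 7.78, 2.46 to 7.46 and 0.819 to 3.33 CPM. The ratio in these fish is therefore not read as germ cell RNA per oocyte RNA. The part of oocyte number in the germ cell gene results was not tested.

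**Figure D4:**
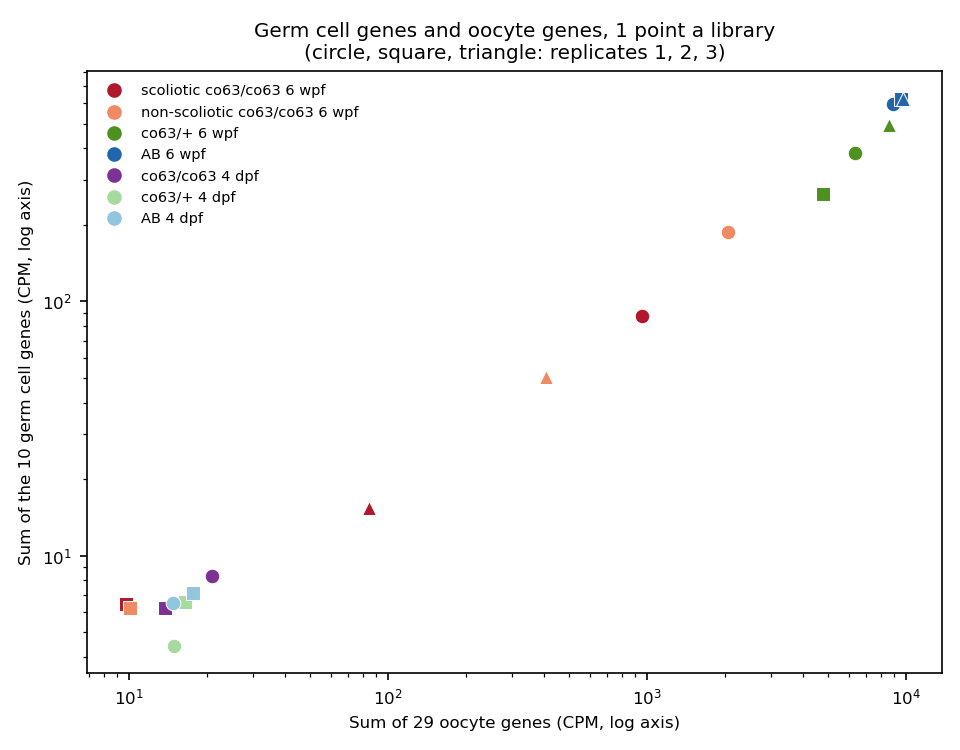
Sum of the 10 germ cell genes against the sum of 29 oocyte genes (CPM, both axes log) in each of the 18 libraries, coloured by group. AB and *kif7co63/+* fish lie at the upper right, scoliotic fish 2 (6.45 and 9.69 CPM) and non-scoliotic fish 2 (6.22 and 10.1 CPM) lie with the larvae at the lower left, and the other *kif7co63/co63* fish lie between.

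*buc*, which organises the Balbiani body of the zebrafish oocyte, read 57.9, 0.516 and 3.59 CPM in scoliotic fish, 112, 0.153 and 18.6 CPM in non-scoliotic fish, 424, 306 and 481 CPM in *kif7co63/+* fish and 533, 621 and 609 CPM in AB fish. *bmp15*, an oocyte growth factor, was lower in scoliotic vs. AB fish by -5.46 ± 1.03 on the log2 scale (adjusted p = 0.00615), and in *kif7co63/+* vs. AB fish by -0.81 ± 0.22 (0.0223). Of 25 oocyte genes tested, again without *ccnb1*, 16 were lower and none higher in scoliotic vs. AB fish (median -4.89), 8 and none in non-scoliotic vs. AB fish (median -3.72) and 7 and none in *kif7co63/+* vs. AB fish (median -0.54), where 23.0%, 21.9% and 17.6% of all genes were lower. With *ccnb1* the counts were 17, 9 and 7 of 26. *figla*, a transcription factor of early oocytes, and *si:ch211-14a17.7*, both named after their values were seen, overlapped between scoliotic and AB fish. *figla* read 2.94, 0.129 and 0 CPM in scoliotic fish and 4.90, 0 and 0.0231 CPM in non-scoliotic fish, against 10.2 to 18.7 CPM in *kif7co63/+* fish and 0.520 to 8.78 CPM in AB fish. *si:ch211-14a17.7* read 45.0, 0 and 4.94 CPM in scoliotic fish and 83.9, 0 and 21.3 CPM in non-scoliotic fish, against 159 to 208 CPM in *kif7co63/+* fish and 0.386 to 47.9 CPM in AB fish.

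Most other genes of the piRNA pathway were lower than in AB fish. Of 18 tested, 14 were lower and 1 higher in scoliotic vs. AB fish (median -4.10), 13 lower and 2 higher in non-scoliotic vs. AB fish (median -3.42) and 12 lower and 1 higher in *kif7co63/+* vs. AB fish (median -0.92), where 23.0%, 21.9% and 17.6% of all genes were lower. *henmt1*, the methyltransferase of piRNA ends, read 3.57, 1.38 and 1.61 CPM in scoliotic fish, 3.95, 2.21 and 2.29 CPM in non-scoliotic fish, 10.0, 8.32 and 16.9 CPM in *kif7co63/+* fish and 20.3, 22.6 and 25.2 CPM in AB fish. *fkbp6*, a co-chaperone of piRNA loading in mice, read 0.27, 0 and 0 CPM in scoliotic fish and 1.57, 0 and 0.278 CPM in non-scoliotic fish, against 11.0 to 12.5 CPM in *kif7co63/+* fish and 20.7 to 24.5 CPM in AB fish.

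*tdrd6*, a Tudor protein of the germ plasm, read 26.5, 5.16 and 4.16 CPM in scoliotic fish and 37.7, 3.30 and 12.7 CPM in non-scoliotic fish, against 82.4 to 137 CPM in *kif7co63/+* fish and 168 to 188 CPM in AB fish. *asz1*, a protein of the germ granule in mice, was lower by -6.91 ± 0.86 in scoliotic vs. AB fish (adjusted p = 0.00113). *mov10b.1*, which was higher in both homozygous groups than in AB fish, is a relative of the piRNA helicase gene *mov10l1* that is not restricted to germ cells. It averaged 15.8 ± 2.13 CPM in scoliotic fish and 15.9 ± 6.52 CPM in non-scoliotic fish, against 6.13 ± 0.68 CPM in AB fish (SD, n = 3 each). *tdrd5* and *tdrd7b*, named after their values were seen, also lay above all AB fish in some groups. *tdrd5* read 28.3, 22.7 and 36.2 CPM in *kif7co63/+* and 18.4, 16.9 and 21.0 CPM in AB fish, but 0.142 to 14.0 CPM in *kif7co63/co63* fish. *tdrd7b* read 8.62 to 11.2 CPM in *kif7co63/co63* and 5.79 to 8.12 CPM in AB fish, but 5.51 to 6.82 CPM in *kif7co63/+* fish.

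Among other germ plasm and germ cell genes, 12 of 19 tested were lower and 3 higher in scoliotic vs. AB fish (median -1.82), 9 and 3 in non-scoliotic vs. AB fish (median -1.78), and 6 and 3 in *kif7co63/+* vs. AB fish (median -0.40), where 23.0%, 21.9% and 17.6% of all genes were lower. *rbpms2b*, an RNA-binding partner of Bucky ball in oocytes that other tissues use as well, averaged 28.9 ± 5.51 CPM in the scoliotic group, against 202 ± 13.6 CPM in the AB group (SD, n = 3 each). Those that were higher include *kita*, a receptor of pigment cells, in all 3 comparisons and *cxcr4b*, a chemokine receptor of many migrating cells, in non-scoliotic and *kif7co63/+* fish, and neither is specific to germ cells. In *kif7co63/+* vs. AB fish, *cxcr4b* was higher by 1.73 ± 0.13 (adjusted p = 6.50e-05) and *kita* by 0.92 ± 0.11 (0.000644) on the log2 scale. *nanos1* and *kitlga*, named after their values were seen, were also above all AB fish in every scoliotic fish. *nanos1* read 43.2 to 52.6 CPM in scoliotic and 27.1 to 30.1 CPM in AB fish, and *kitlga* 21.2 to 26.4 CPM and 12.4 to 15.1 CPM. The germ plasm list shares *buc* and *cpeb1b* with the oocyte list and *tdrd7a* with the piRNA list. Counts of these lists are therefore not independent of one another.

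Among the other meiosis genes, 17 of 25 tested were lower and none higher in scoliotic vs. AB fish (median -1.22), 14 of 25 and none in non-scoliotic vs. AB fish (median -0.94) and 7 of 27 and none in *kif7co63/+* vs. AB fish (median -0.41), where 23.0%, 21.9% and 17.6% of all genes were lower. *spo11*, which makes the double-strand breaks of meiosis, read 0.562, 0.107 and 0.118 CPM in scoliotic fish, 0.754, 0 and 0.185 CPM in non-scoliotic fish, 3.46, 2.18 and 3.37 CPM in *kif7co63/+* fish and 3.52, 3.96 and 4.47 CPM in AB fish. *syce2*, of the central element of the synaptonemal complex, read 0.831, 0.107 and 0.118 CPM in scoliotic fish and 0.112, 0.115 and 0.0926 CPM in non-scoliotic fish, against 3.01 to 4.86 CPM in *kif7co63/+* fish and 4.47 to 5.98 CPM in AB fish. *brca2* and *mlh3*, repair genes with roles outside meiosis, were lower by -0.99 ± 0.11 and -1.08 ± 0.17 in scoliotic vs. AB fish.

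General cell division genes also differed: 13 of 20 tested were lower and 6 higher in scoliotic vs. AB fish (median -1.09), 14 and 4 in non-scoliotic vs. AB fish (median -1.13), and 14 and none in *kif7co63/+* vs. AB fish (median -0.79), where 23.0%, 21.9% and 17.6% of all genes were lower. Their summed level was 1961 to 2105 CPM in scoliotic, 1666 to 2133 CPM in non-scoliotic, 1571 to 2753 CPM in *kif7co63/+* and 3303 to 3581 CPM in AB fish, and it did not drop to the larval range of 728 to 1068 CPM in scoliotic fish 2 or non-scoliotic fish 2. Its part in the meiosis counts was not tested.

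Of 13 genes of spermatids and sperm tested, 1 was lower in scoliotic vs. AB fish, *ropn1l*, and none was higher (median -0.04). Of all genes, 42.1% passed there and 23.0% were lower. In non-scoliotic vs. AB fish 1 of 13 was lower and 1 higher, where 43.1% of all genes passed. In *kif7co63/+* vs. AB fish 1 of 15 was higher and none lower, where 36.2% passed. The sum of the 17 genes was 40.8 to 41.8 CPM in scoliotic, 41.2 to 44.0 CPM in non-scoliotic, 34.6 to 38.4 CPM in *kif7co63/+* and 38.1 to 41.1 CPM in AB fish and 38.0 to 48.1 CPM in larvae. Much of it was *ift74*, a gene of cilia in general, at 19.5 to 24.6 CPM in scoliotic and 21.0 to 22.8 CPM in AB fish. Without it the sum was 16.1 to 22.2 CPM in scoliotic, 15.6 to 18.7 CPM in non-scoliotic, 17.8 to 21.8 CPM in *kif7co63/+* and 17.2 to 18.7 CPM in AB fish. In larvae it was 16.5 to 32.1 CPM, so these sums are not read as a level of sperm RNA. Among genes of the somatic gonad and its steroid synthesis, 4 of 22 tested were lower and 3 higher in scoliotic vs. AB fish (median -0.05), and 23.0% of all genes were lower. *cyp17a1* and *hsd3b2*, enzymes of steroid synthesis, were lower by -3.78 ± 0.49 (adjusted p = 0.00136) and -5.95 ± 1.24 (0.00904) on the log2 scale, and *cyp11a1* and *inha*, an inhibin subunit, were the other lower genes. Those that were higher are *sox9a*, a transcription factor of cartilage as well as gonad, at 44.5 ± 4.11 CPM in the scoliotic group, against 23.0 ± 1.88 CPM in the AB group (SD, n = 3 each), *nr0b1*, a nuclear receptor gene, by 0.84 ± 0.15 and *fancl*, a DNA repair gene, by 1.11 ± 0.23 on the log2 scale. In non-scoliotic vs. AB fish 4 of 22 somatic gonad genes were lower and 3 higher (median -0.04), where 21.9% and 21.2% of all genes were. In *kif7co63/+* vs. AB fish 2 of 22 were lower and 7 higher (median 0.11), where 17.6% and 18.6% of all genes were.

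*amh*, a hormone of the supporting cells of the gonad that restrains germ cell growth in zebrafish, ran in another order. It read 1.75, 1.096 and 5.55 CPM in scoliotic fish, 1.85, 9.58 and 2.06 CPM in non-scoliotic fish, 5.88, 7.42 and 6.32 CPM in *kif7co63/+* fish and 0.572, 1.37 and 0.815 CPM in AB fish. *amh* was higher in *kif7co63/+* than in AB fish by 2.84 ± 0.32 on the log2 scale (adjusted p = 0.000464). Its highest level was in non-scoliotic fish 2, 1 of the fish with the least germ cell RNA, and its lowest among homozygous fish was in scoliotic fish 2, the other. None of the lists had a gene past the threshold between scoliotic and non-scoliotic fish, where only 0.38% of all genes passed.

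Over the 12 fish of 6 wpf, the 10 genes outside the set that ran closest to the mean of the 9 detected genes, by Pearson's r of log2 CPM, were *zp3d.2* (r = 0.993), *zgc:162592*, *zgc:173742*, *si:ch211-167j6.3*, *POLR2E (1 of many)*, *fam113*, *tuba4l*, *cyp11a1*, *zgc:152968* and *cpeb1b* (r = 0.988), out of 23651 genes ranked. *zp3d.2* encodes an egg coat protein, *cpeb1b* a regulator of stored messages in the oocyte and *cyp11a1* the enzyme that starts steroid synthesis. *zp3d.2* ranged from 0.0764 to 51.6 CPM over the 12 fish and *cyp11a1* from 0.279 to 199 CPM. The 9 genes themselves had r of 0.973 to 0.986 with that mean for *piwil1*, *piwil2*, *ddx4*, *dazl* and *dnd1*, 0.938 for *nanos3*, 0.911 for *sycp3*, 0.891 for *sycp1* and 0.408 for *tdrd1*. The fish share genotype groups, and these values are a description without a test.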

How the data were processed

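HISAT2 was the authors' aligner, with GRCz11 as the genome build. The submitters' processing notes also name fastp, StringTie, featureCounts and DESeq2, and the strand setting of the counting is not given in the sources used here. The counts were deposited by the authors without normalization, and symbols, positions and lengths come from the same table. A second table, with the authors' DESeq2 fold changes and p-values, and 18 per-sample columns were not used.

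Counts were tested with edgeR 4.0.16 (R 4.3.3; quasi-likelihood test, TMM scaling, filterByExpr with a minimum count of 10 and total of 15) on the groups compared, with Benjamini-Hochberg adjustment over all genes tested and a threshold of 0.05. The edgeR test returns no SE, and the SE given is the absolute log2 fold change divided by the square root of the F statistic. Levels are CPM with TMM factors over all 18 libraries. Alternatives were RLE scaling, DESeq2 1.42.0, no filter, a filter at a mean of 1 CPM, a replicate block, wider fits and leaving out each library. The edgeR steps were tested on simulated data. The genes and the lists beside them were chosen with earlier results of these data known. Of each list and comparison, up to 4 genes were named, those with the smallest adjusted p whose groups did not overlap. *nanos1*, *kitlga*, *tdrd5* and *tdrd7b*, and *lhx8a*, *gdf3* and *cpeb1b* in the oocyte sums, were added outside this rule after their values were seen. Each other list gene named with values met it in at least 1 comparison, except *figla*. The 10 genes closest to the set were ranked by Pearson's r of log2 CPM (prior count of 2) over the 12 libraries of 6 wpf. The genes beside *tdrd1* and *dmc1*, *figla*, *si:ch211-14a17.7* and *ift74*, and the lists without *ccnb1* or *ift74*, were chosen after their values were seen. Intervals and floors (3 reads) cover counting error only. Figures were drawn with matplotlib 3.10.9 in Python 3.11.15.

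Replicate numbers are those of the sample titles. In no comparison did every same-numbered pair of libraries deviate together with r above 0.1 (0.0378 to 0.436 in scoliotic vs. non-scoliotic fish, the highest), so the numbers were not taken as pairs. Between replicates of a group the lowest chi-square per gene was 27.4, above sampling noise in every pair, and pairs across groups were not compared. Of the lists, 18 of 23 piRNA, 19 of 20 germ plasm, 28 of 37 meiosis, 30 of 32 oocyte, 17 of 24 sperm, 25 of 25 somatic gonad and 20 of 20 cell division symbols were found.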

Additional observations from a re-analysis of the deposited data

Results flagged for a closer look

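The effect of the homozygous genotype on *sycp1* differed between ages in a test of the difference itself. Age cannot be told apart there from single fish against pools of embryos. The effect vs. AB at 6 wpf minus that at 4 dpf was -3.92 ± 0.72 on the log2 scale (edgeR, adjusted p = 0.00899). *sycp1* was the 1 gene of 9 tested that passed, where 11.0% of all genes passed and 6.75% were lower. The count for the set was thus near the share of all genes. *sycp1* averaged 1.06 CPM in the 6 homozygous fish of 6 wpf and 6.10 CPM in AB fish, against 1.87 CPM in homozygous and 0.736 CPM in AB pools of 4 dpf. All 6 homozygous fish of 6 wpf were below all 3 AB fish, and both homozygous pools of 4 dpf were above both AB pools. The homozygous pools differed widely from each other over all genes, and which of them was unusual was not tested. For *sycp1*, *kif7co63/co63* pool 2 read 0.896 CPM, and the higher value came from pool 1 at 2.85 CPM. Without that pool the difference was -2.88 (adjusted p = 0.0166), and without AB pool 1 of 4 dpf it did not pass (adjusted p = 0.0518).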

How the results depend on the processing

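Over 45 gene results past the threshold, 248 of 263 values under other settings and 181 of 260 with 1 library left out stayed past it, all others kept their direction, and none reversed. DESeq2 and RLE scaling ended no call that they could test. Genes past the threshold, leaving out 1 library, numbered 5 to 7 in scoliotic vs. AB fish, 1 to 7 in non-scoliotic vs. AB fish, 2 to 8 in *kif7co63/+* vs. AB fish, 1 to 7 in scoliotic vs. *kif7co63/+* fish and 0 to 6 in non-scoliotic vs. *kif7co63/+* fish. They numbered 0 to 1 in *kif7co63/co63* vs. *kif7co63/+* larvae, 0 to 2 between ages in homozygous zebrafish, 0 to 3 for the age difference of the homozygous effect and 0 to 1 for that of the heterozygous effect. With all libraries of the age in 1 fit, 1 gene passed in *kif7co63/+* vs. AB fish and 2 in non-scoliotic vs. *kif7co63/+* fish, where DESeq2 gave 3. Between ages in homozygous zebrafish, DESeq2 and the fit of all 18 libraries gave 5 each. The median log2 fold change of all genes moved by up to 0.139 over the settings of that comparison and by up to 0.102 in *kif7co63/co63* vs. *kif7co63/+* larvae. The cause of these shifts was not tested. A lone library left in a group was assumed to vary like the other groups. In the larval comparisons every fit with 1 library left out holds such a lone pool, so those counts are not read as results.

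The replicate block gave 7, 4, 6, 6 and 3 genes in the 5 comparisons of 6 wpf fish in the order above and 0 in scoliotic vs. non-scoliotic fish, 0 in each larval comparison, 7 and 8 between ages in AB and *kif7co63/+* zebrafish and 1 for the age difference of the homozygous effect (*sycp1*). The numbers are not known to pair the samples, and in no comparison with 3 pairs did more than 2 of them correlate best with their own number. They are those of the sample titles, and at 4 dpf the submitters' library names number the pools otherwise. There the *kif7co63/co63* pools carry 2 and 3, the *kif7co63/+* pools 3 and 4, and the AB pools 1 and 2. Pools of *kif7co63/co63* and AB larvae with the same title number deviated in opposite ways (r = -0.127). Crossing the title numbers, chosen after seeing the data, pairs the pools of these groups that both carry 2 in the library names. It gave 0 genes of the set and 562 over all genes, against 526 with the block and 114 without it.

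Counts over all genes moved by over 1.5 times in some comparisons. Scoliotic vs. non-scoliotic fish gave 84 genes, 390 by DESeq2 and 29 with the block. *kif7co63/co63* vs. AB larvae gave 114, and 647 by DESeq2. *kif7co63/+* vs. AB larvae gave 1381, 2550 by DESeq2 and 21 with all larvae in 1 fit. *kif7co63/co63* vs. *kif7co63/+* larvae gave 8, 246 by DESeq2 and 264 with the block. The age difference of the homozygous effect gave 2671, 4243 by DESeq2 and 1744 with the block. With a prior count of 0.5 in place of 2, 5 of the 10 closest genes were shared. *sycp3* rested on 7 to 77 reads a library at 6 wpf, and *dmc1* could not be tested.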
